A study of Mus musculus with 9 samples.

Results

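The genes described here encode the protein parts of the spliceosome's small nuclear ribonucleoprotein particles (snRNPs) and the heterogeneous nuclear ribonucleoproteins (hnRNPs), measured in mouse embryos made by pronuclear transfer. They were taken by name, as the rows of the expression table whose symbol starts with Hnrnp, Sf3a, Sf3b, Prpf, U2af or Snrp. Of 58 such symbols, the bicistronic Snrpn and 1 pseudogene were left out, which gave 56 genes of 19359 in the table. They fall into 7 Sm core proteins, 5 proteins of the U1 particle, 14 of the U2 particle with SF3A, SF3B and U2AF, 5 of the U4/U6.U5 tri-snRNP, 5 other Prp factors and 20 hnRNPs. The rule goes by name and uses no measured value, but it was chosen with earlier results of these data known.

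The study compared 3 kinds of embryo, and each kind was sequenced as 3 libraries named A, B and C. LPN embryos had received later pronuclear transfer, EPN embryos early pronuclear transfer, and SPN embryos sham pronuclear transfer, which served as the control. In pronuclear transfer the pronuclei of a fertilised egg are moved into other egg cytoplasm, and the labels give no clock time for either transfer. Every library was a pool of 3 embryos taken 34 h after fertilisation, so sham embryos were of the same age and the oocytes of all groups came from hormonally stimulated B6D2F1 females of 8 to 12 weeks. The protocol text, which is the same for all 9 samples, also describes enucleated germinal vesicle oocytes as a source of cytoplasts without saying which group used them. Nothing says that the pools of a group came from separate days or matings, so the p-values measure the spread between these libraries, which may be technical.

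Introns are removed by the spliceosome, which assembles anew on each one. The U1 particle pairs with the 5′ splice site, the U2 particle with its SF3A and SF3B proteins settles on the branch point, the U2AF pair reads the polypyrimidine tract and the 3′ splice site, and the U4/U6.U5 tri-snRNP then joins and is rearranged into the catalytic form. A ring of 7 Sm proteins is the common core of the U1, U2, U4 and U5 particles. The hnRNPs coat nascent transcripts and shift the choice of splice sites, and several of them also act in export, stability and translation of mRNA. In the mouse, the egg's stored transcripts are degraded and the embryo's own genome is switched on around the first cleavages.

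Values are CPM, read counts scaled to a common library total, so they are shares of each library's reads; where 3 values are given they are libraries A, B and C in that order. In pooled embryos, fewer cells that hold a transcript and less of it per cell cannot be told apart. A gene's share can also change because other transcripts change. The libraries held 7611781 to 15559218 reads, at which 1 read was worth 0.0643 to 0.131 CPM. Of the 56 genes, 54 reached 1 CPM in no fewer than 3 libraries and were tested among 14876 genes. Prpf40b, a U1-associated factor, and U2af1l4, a relative of U2af1, did not; they were at 0 to 2.13 CPM and 0 to 0.266 CPM over all libraries. A gene is said to have risen or fallen where the limma test on log2(CPM + 1) gave a Benjamini-Hochberg adjusted p under 0.05, and every difference quoted is on that log2 scale with the first-named group minus the second.

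The embryo identity of the libraries was checked with marker genes. The sum of 5 genes of the 2-cell stage was 3963 to 6333 CPM in LPN, 3293 to 4708 CPM in EPN and 1275 to 2728 CPM in SPN, and 4 of the 5 rose in LPN against SPN. The 7 oocyte genes summed to 11197 to 15324 CPM in LPN, 9984 to 14749 CPM in EPN and 9638 to 11097 CPM in SPN. Most of each sum was Dppa3, at 9289 to 13678 CPM in LPN, 7362 to 12532 CPM in EPN and 6599 to 8339 CPM in SPN. Dppa3 did not pass the test in LPN against SPN. Of the 7 genes, 1 rose in that comparison, Zp3, and 4 fell, Gdf9, Bmp15, Nlrp5 and Oosp1. Of 9 listed cumulus cell markers, 5 had a row, and they summed to 4.63 to 16.5 CPM in LPN, 11.5 to 26.0 CPM in EPN and 4.99 to 11.9 CPM in SPN. Foxl2 was at 0 in every library. Tnfaip6 alone had 4.37 to 15.5 CPM in LPN, 11.5 to 23.7 CPM in EPN and 2.13 to 10.8 CPM in SPN. Its EPN libraries were all above its SPN libraries, without passing the limma test (1.75, adjusted p = 0.27). Sperm markers summed to 2.50 to 6.03 CPM in LPN, 1.80 to 6.02 CPM in EPN and 5.30 to 11.1 CPM in SPN. Blood markers, mostly the globin gene Hba-a1, summed to 13.1 to 30.8 CPM in LPN, 32.9 to 82.3 CPM in EPN and 41.9 to 100.4 CPM in SPN, and Hba-a1 fell in LPN against SPN. The part of stage and of other cells in the differences below was not tested. The control library SPN A stood apart from the other controls. In 38 of the 54 tested genes (70.4%) it was nearer to the LPN mean than to the mean of SPN B and SPN C. The share was 53% over all tested genes. With the EPN mean in place of the LPN mean, it was nearer in 39 genes (72.2%), against 61.5% of all tested genes. SPN B and SPN C were not measured in this way.

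Set per kilobase of the longest coding transcript, the most abundant of the genes in the control embryos were Snrpe, Snrpg and Hnrnpa1. Snrpe, a small subunit of the Sm ring, had 606 CPM per kilobase in LPN, 498 in EPN and 834 in SPN. Snrpg, its neighbour in the ring, had 456 CPM per kilobase in LPN, 522 in EPN and 798 in SPN. Hnrnpa1, a repressor of splice sites, had 510.4 CPM per kilobase in LPN, 645 in EPN and 382 in SPN. The tri-snRNP scaffold Prpf8, which holds the catalytic centre, had 5.60 CPM per kilobase in LPN, 5.68 in EPN and 6.57 in SPN. Transcript lengths come from the GENCODE M21 annotation and the isoform used by embryos is not known, so the order is approximate. Many of these transcripts share sequence with other annotated genes. For 18 of the 56 more than 10% of the 75-base stretches of that transcript recur, on either strand, in another annotated gene. Among them are Hnrnpa1 (44.4%, 14 other genes), Snrpf (85.4%), Snrpe (17.3%) and Snrpg (16%). The genes that share include named ones, such as Ccdc38 for Snrpf and March2 for Hnrnpm, so this is not a count of processed copies. Where reads of such stretches were counted was not stated, so those levels are uncertain.

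**Figure D1:**
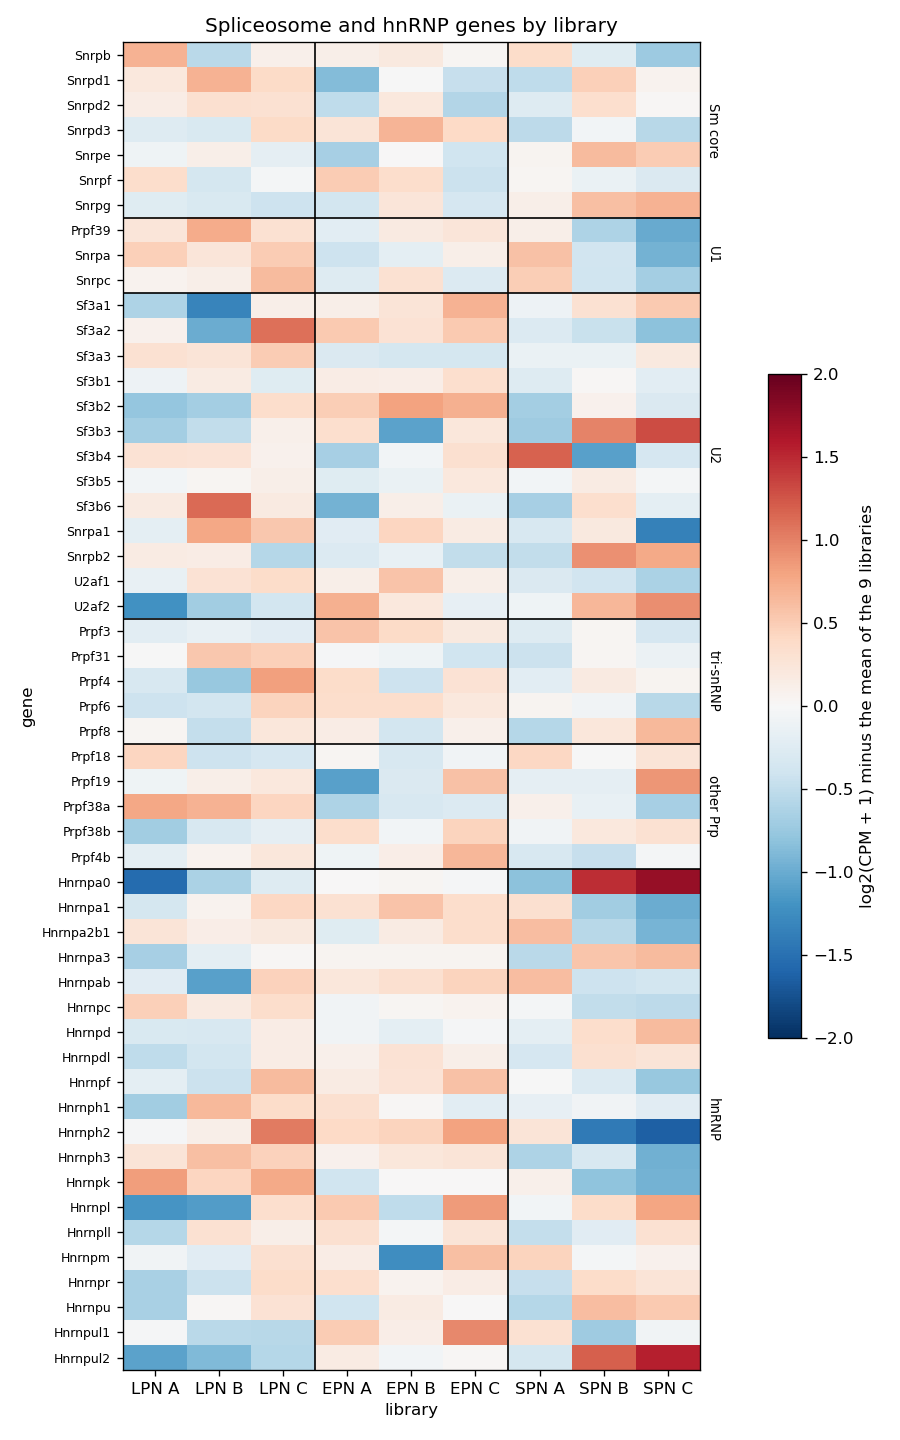
Level of tested genes in each library, as log2(CPM + 1) minus the gene's mean over the 9 libraries (colour), with genes in rows by gene group and libraries in columns in the order LPN, EPN, SPN. Hnrnpk and Prpf38a are high in the 3 LPN libraries, Hnrnpul2 is high in SPN B and SPN C, and SPN A differs in colour from SPN B and SPN C in many rows.

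The first question is whether embryos of later transfer differed from sham embryos. In LPN against SPN, 4 of the 54 tested genes rose (7.41%), namely Hnrnpk, Hnrnph2, Hnrnph3 and Prpf38a, and 1 fell, Hnrnpul2 (1.85%). Over all tested genes the shares were 3.26% higher and 5.54% lower, and with 4 and 1 calls no difference from these shares was tested. Of the 5 genes, 4 are hnRNPs and 1 is a factor of spliceosome activation. No gene of the Sm core, U1, U2 or tri-snRNP groups passed the test. At an unadjusted p under 0.05 there were 9 higher and 5 lower, against 10.2% and 16.7% of all genes. The groups did not overlap for 7 genes above SPN and 4 below it, against 11.3% and 16.2% of all genes. The median difference of the 54 genes was 0.08, and that of all tested genes was -0.17.

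**Figure D2:**
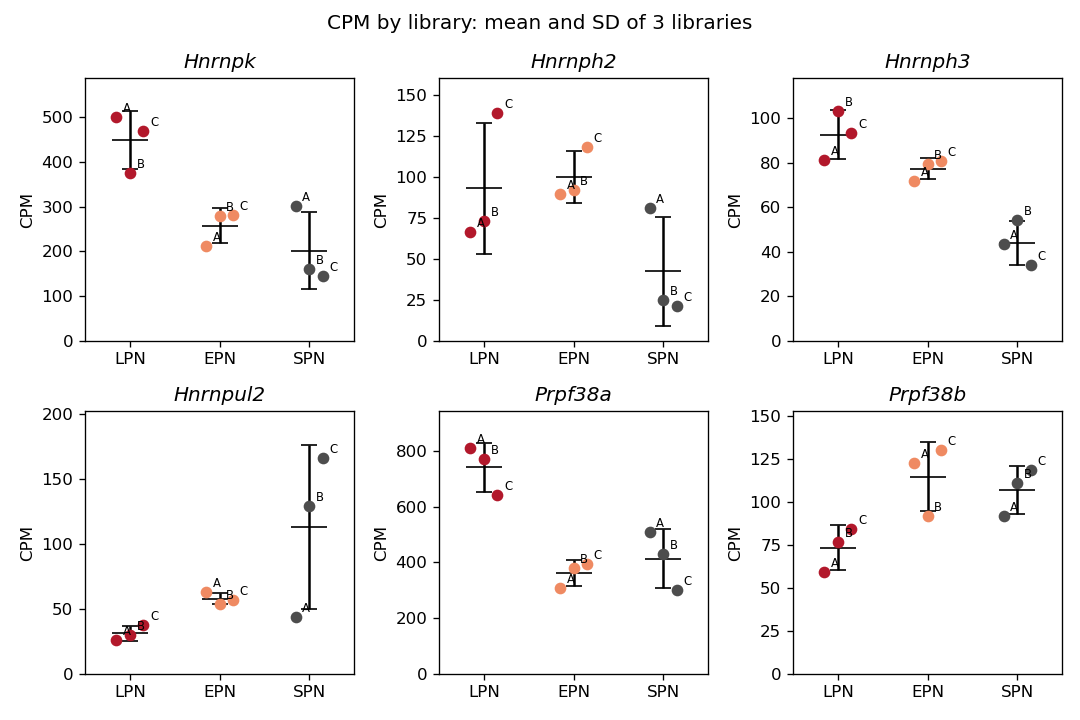
CPM of the 5 genes that passed the test in LPN against SPN and of Prpf38b, one panel a gene, with a point for each library (A, B, C) in the order LPN, EPN, SPN, a dash for the mean and whiskers for the SD of the 3 libraries. LPN lies above SPN without overlap for Hnrnpk, Hnrnph3 and Prpf38a and below it for Hnrnpul2 and Prpf38b, while SPN A lies within the LPN range for Hnrnph2.

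The promoters of the 4 genes that rose together in LPN against SPN are shown because their sequence was not used to choose them. Each runs from 250 bases before to 50 after the start that RefSeq annotates on the mouse build GRCm38.p6, and is written 5′ to 3′ on the gene's strand. Capitals mark exact matches, on either strand, to short words that general promoter factors are known to bind. The first word that is found here is the box spelled CCAAT. The next is the GC box, spelled GGGCGG. The last that is found here is the E-box with the letters CACGTG, a palindrome. A match on the other strand is printed as its reverse complement.
Hnrnpk (chr13:58402068-58402367, - strand): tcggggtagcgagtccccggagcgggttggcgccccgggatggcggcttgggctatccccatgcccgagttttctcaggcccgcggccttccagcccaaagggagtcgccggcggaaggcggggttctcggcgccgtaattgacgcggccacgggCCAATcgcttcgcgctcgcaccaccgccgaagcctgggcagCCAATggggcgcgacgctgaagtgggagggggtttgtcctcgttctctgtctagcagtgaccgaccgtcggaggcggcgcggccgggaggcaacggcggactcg
Hnrnph2 (chrX:134600929-134601228, + strand): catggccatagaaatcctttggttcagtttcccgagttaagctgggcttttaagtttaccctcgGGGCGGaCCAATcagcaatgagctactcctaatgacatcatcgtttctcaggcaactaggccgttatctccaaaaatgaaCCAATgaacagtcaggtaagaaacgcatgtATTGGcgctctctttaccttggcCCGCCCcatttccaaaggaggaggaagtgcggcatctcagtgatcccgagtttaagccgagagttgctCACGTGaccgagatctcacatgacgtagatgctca
Hnrnph3 (chr10:63023800-63024099, - strand): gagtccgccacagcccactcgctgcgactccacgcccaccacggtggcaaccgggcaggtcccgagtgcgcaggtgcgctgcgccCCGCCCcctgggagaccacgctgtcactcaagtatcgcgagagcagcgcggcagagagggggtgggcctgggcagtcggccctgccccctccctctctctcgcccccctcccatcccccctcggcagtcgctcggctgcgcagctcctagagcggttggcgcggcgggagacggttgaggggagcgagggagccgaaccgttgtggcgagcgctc
Prpf38a (chr4:108579287-108579586, - strand): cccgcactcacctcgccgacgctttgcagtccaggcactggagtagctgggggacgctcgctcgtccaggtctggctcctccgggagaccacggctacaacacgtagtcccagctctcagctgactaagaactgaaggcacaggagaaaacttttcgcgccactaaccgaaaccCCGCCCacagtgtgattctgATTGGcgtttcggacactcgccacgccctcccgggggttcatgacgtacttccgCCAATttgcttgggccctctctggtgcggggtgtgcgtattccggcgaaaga
Hnrnpk, Hnrnph2 and Prpf38a hold CCAAT and Hnrnph3 does not, while the GC box is in Hnrnph2, Hnrnph3 and Prpf38a and not in the Hnrnpk window. No matches overlap each other. They differ in base composition, with 70.7% G and C for Hnrnpk, 49% for Hnrnph2, 73% for Hnrnph3 and 60.7% for Prpf38a. Promoters of 47 of the 56 genes were matched by symbol, 62 promoters in all. CCAAT was in 33 of the 62 (53.2%), against 37.4% of all 32851 promoters of the same length. The GC box was in 61.3%, against 35.7%, and the ETS-like word CCGGAAG in 30.6%, against 8.86%. The E-box was in 17.7%, against 7.15%, and TATAAA in 6.45%, against 13.6%. The NRF1 palindrome was in 0%, against 0.971%. The YY1 word AAGATGG was in 4.84%, against 6.34%. The CRE palindrome TGACGTCA was in 3.23%, against 1.79%. These last words, TATAAA and the ETS-like word had no match in the 4 windows printed above. Member promoters were also richer in G and C, with a median of 59.5%, against 52.7% of all. A match is only a run of letters and no binding was measured.

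Among the hnRNPs, Hnrnpk encodes a KH-domain protein that binds C-rich RNA and acts in transcription, splicing and mRNA stability. It had 500.4, 375 and 469.8 CPM in LPN, 211, 279.7 and 281 CPM in EPN and 301, 159 and 145 CPM in SPN. Every LPN library was above every EPN and every SPN library, and SPN A was the highest of the controls. The difference in LPN against SPN was 1.22 (SE 0.29, adjusted p = 0.011), a fold of 2.33. Part of this transcript (30.7% of its 75-base stretches) also occurs in Gm4130, Gm7964 and Rmi1. For the other genes that passed, the shared part was 13% for Hnrnph2 (in Gm8775), 5.71% for Hnrnpul2, 1.96% for Hnrnph3 and 0% for Prpf38a.

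Hnrnph2 and Hnrnph3 belong to the hnRNP H/F family, which reads runs of G near splice sites and poly(A) sites. Hnrnph3 had 81.1, 103 and 93.2 CPM in LPN, 71.8, 79.2 and 80.7 CPM in EPN and 43.6, 54.0 and 34.1 CPM in SPN. Its groups did not overlap between LPN and SPN, and the EPN libraries lay between them. The difference in LPN against SPN was 1.08 (SE 0.32, adjusted p = 0.0341). Hnrnph2 had 66.5, 73.2 and 139 CPM in LPN, 89.6, 92.2 and 118 CPM in EPN and 80.8, 24.7 and 21.1 CPM in SPN. Here SPN B and SPN C were low and SPN A was within the LPN range, so the groups overlapped, and the difference in LPN against SPN was 1.31 (SE 0.40, adjusted p = 0.037). Their relative Hnrnph1 had 89.7, 229.5 and 189 CPM in LPN, 182, 148 and 126 CPM in EPN and 130.4, 139 and 124 CPM in SPN, overlapping in all 3 groups, with a difference in LPN against SPN of 0.26 (SE 0.32, adjusted p = 0.627). The ratio of Hnrnph3 to Hnrnph1 CPM was 0.905, 0.450 and 0.494 in LPN, 0.394, 0.536 and 0.641 in EPN and 0.334, 0.389 and 0.276 in SPN. Every LPN ratio was above every SPN ratio, which in a two-sided exact permutation test gives p = 0.1, the smallest that 3 against 3 libraries allow. Such ratios were computed for 9 pairs of genes in all 3 comparisons, 27 tests, of which 8 had this smallest p, and it was 0.338 after Benjamini-Hochberg adjustment over the 27 exact tests. In LPN against SPN, 3 pairs had it, and the other 6 had exact permutation p-values of 0.2 to 1. The ratio of Hnrnph2 to Hnrnph1 was among those 6, with an exact permutation p = 0.2.

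Hnrnpul2 encodes a relative of the nuclear scaffold protein hnRNP U. It had 26.0, 29.8 and 37.0 CPM in LPN, 62.4, 53.7 and 56.9 CPM in EPN and 43.3, 129 and 166 CPM in SPN. All LPN libraries were below all SPN libraries, and every EPN library lay between the LPN libraries and SPN B. The difference in LPN against SPN was -1.64 (SE 0.39, adjusted p = 0.0105), the most negative of the 54 genes. Hnrnpu itself had 214, 338 and 407 CPM in LPN, 254, 376 and 337 CPM in EPN and 224, 511 and 480.0 CPM in SPN, with SPN A as low as LPN A and no difference past the test (-0.30, adjusted p = 0.568). Hnrnpul1, the third of these relatives, ran from 7.00 to 24.5 CPM over all libraries.

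With Hnrnph1, Hnrnpu and Hnrnpul1, 16 of the 20 hnRNPs did not pass the test in LPN against SPN. Hnrnpc, which packages nascent transcripts through U-rich tracts, had 1203, 973 and 1094 CPM in LPN, 820.5, 888 and 904 CPM in EPN and 837, 610.4 and 598 CPM in SPN. Its LPN and SPN values did not overlap, and the difference was 0.69 (SE 0.26, adjusted p = 0.0842). Hnrnpa1, the most abundant hnRNP per length, had 729, 969 and 1239 CPM in LPN, 1151, 1377 and 1182 CPM in EPN and 1157, 574 and 465 CPM in SPN. SPN A was far above SPN B and SPN C and the groups overlapped. Its close relative Hnrnpa2b1 had 389, 355 and 371 CPM in LPN, 274, 362 and 415 CPM in EPN and 498, 221 and 169 CPM in SPN, and Hnrnpa3 had 20.4, 28.6 and 33.2 CPM in LPN, 34.0, 34.2 and 34.2 CPM in EPN and 22.3, 48.8 and 51.4 CPM in SPN. For Hnrnpa2b1 SPN A was the highest of all 9 libraries, and for Hnrnpa3 it was the lowest but LPN A. Hnrnpl, a reader of CA repeats, had 4.24, 4.47 and 14.0 CPM in LPN, 16.0, 7.34 and 20.5 CPM in EPN and 10.4, 14.3 and 19.4 CPM in SPN, and its paralog Hnrnpll had 24.1, 45.1 and 39.2 CPM in LPN, 45.4, 35.4 and 43.6 CPM in EPN and 25.8, 30.7 and 45.1 CPM in SPN. The ratio of Hnrnpl to Hnrnpll was 0.176, 0.0991 and 0.357 in LPN, 0.354, 0.208 and 0.469 in EPN and 0.403, 0.464 and 0.430 in SPN, with every LPN ratio below every SPN ratio (two-sided exact permutation p = 0.1, the smallest possible; 0.338 after adjustment over the 27 tests). The ratios of Hnrnpa1 to Hnrnpa2b1 and of Hnrnpa3 to Hnrnpa1 overlapped between LPN and SPN, with exact permutation p-values of 1 and 0.4.

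Prpf38a and Prpf38b carry related Prp38 domains; Prpf38a joins the spliceosome before activation, and its yeast counterpart Prp38 is needed for that step. Prpf38a had 811, 772 and 642 CPM in LPN, 309, 381 and 393 CPM in EPN and 509.9, 430.1 and 300.1 CPM in SPN. The 3 LPN libraries were above all other libraries, and the difference in LPN against SPN was 0.87 (SE 0.27, adjusted p = 0.0405), a fold of 1.83. Prpf38b had 59.1, 76.9 and 84.4 CPM in LPN, 123, 91.9 and 130.3 CPM in EPN and 91.8, 111 and 119 CPM in SPN. Here every LPN library was below every EPN and SPN library, but the difference in LPN against SPN was -0.55 (SE 0.31, adjusted p = 0.248) and did not pass the test. The ratio of Prpf38a to Prpf38b was 13.7, 10.1 and 7.61 in LPN, 2.52, 4.15 and 3.02 in EPN and 5.56, 3.87 and 2.53 in SPN. All LPN ratios exceeded all EPN and all SPN ratios, with a two-sided exact permutation p = 0.1 in each case, the smallest possible (0.338 after adjustment over the 27 tests). The ratio of Prpf4 to Prpf4b, also computed, had an exact permutation p = 0.4 in LPN against SPN. Neither transcript shares a 75-base stretch with another annotated gene. Prpf18, which acts in the second catalytic step, had 78.9, 43.2 and 45.8 CPM in LPN, 59.8, 46.6 and 55.7 CPM in EPN and 78.0, 57.9 and 69.8 CPM in SPN, and the groups overlapped. Prpf4b, a kinase, and Prpf19, a ubiquitin ligase of the activated spliceosome, had differences of 0.31 and -0.09, neither past the test.

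Of all tested genes, 8.8% passed the limma test in LPN against SPN and 26.9% had an unadjusted p under 0.05. In the Sm core, where no share was tested against these, 0 of 7 genes passed and 1 was under that unadjusted p. That gene was Snrpg, which had 508, 487 and 448 CPM in LPN, 466, 710.3 and 475 CPM in EPN and 647, 912 and 966 CPM in SPN. All LPN libraries were below all SPN libraries, and the difference was -0.79 (SE 0.27, adjusted p = 0.0595). Snrpe had 392, 455 and 369.8 CPM in LPN, 263, 421 and 315 CPM in EPN and 434, 647 and 592 CPM in SPN, and LPN B was above SPN A, so the groups overlapped. Its difference was -0.44 (SE 0.27, adjusted p = 0.299). Snrpd1 had 296, 414 and 336 CPM in LPN, 139.6, 256 and 187 CPM in EPN and 180.4, 357 and 270.4 CPM in SPN, with a difference of 0.41 (SE 0.30, adjusted p = 0.387) and overlapping groups. Over the 7 subunits the differences ran from -0.79 for Snrpg to 0.41 for Snrpd1, and 5 were positive.

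Of the U1 proteins, Prpf39 had the smallest p. It is a helical repeat protein whose yeast counterpart is a stable U1 subunit, and it had 93.4, 132 and 97.2 CPM in LPN, 67.4, 88.6 and 92.7 CPM in EPN and 85.5, 50.9 and 38.6 CPM in SPN. All LPN libraries were above all SPN libraries, and the difference was 0.93 (SE 0.33, adjusted p = 0.0709). Snrpa, which binds a loop of the U1 RNA, had 186, 159 and 191 CPM in LPN, 100.3, 116 and 145 CPM in EPN and 200.1, 102 and 69.0 CPM in SPN. SPN A was the highest library of all and the other controls were low, with a difference of 0.66 (SE 0.33, adjusted p = 0.188). Snrpc, which steadies the pairing with the 5′ splice site, had 407, 424 and 604 CPM in LPN, 324, 479.9 and 323 CPM in EPN and 548, 294 and 242 CPM in SPN, and again SPN A was above SPN B and SPN C. Its difference was 0.47 (SE 0.30, adjusted p = 0.317).

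In the U2 group, 0 of 13 tested genes passed the limma test, with 3 higher and 2 lower at an unadjusted p under 0.05. Of all tested genes 8.8% passed, and 10.2% were higher and 16.7% lower at that unadjusted p. No difference from these shares was tested. Snrpa1, which binds the U2 RNA near its 3′ end, had 248, 489.6 and 413 CPM in LPN, 245, 385 and 318 CPM in EPN and 228, 326 and 111 CPM in SPN. SPN C was the lowest library, and SPN B overlapped with LPN A. The difference was 0.86 (SE 0.33, adjusted p = 0.0886). Its binding partner on the U2 RNA, Snrpb2, had 69.5, 69.1 and 41.2 CPM in LPN, 50.9, 56.0 and 43.7 CPM in EPN and 43.7, 117 and 105 CPM in SPN and a difference of opposite sign that did not pass the test (-0.48, adjusted p = 0.418). Sf3a1, the largest SF3A subunit, had 37.5, 22.7 and 63.3 CPM in LPN, 63.3, 70.1 and 94.8 CPM in EPN and 54.4, 72.5 and 84.5 CPM in SPN. LPN C lay above SPN A, so the groups overlapped, with a difference of -0.86 (SE 0.36, adjusted p = 0.124). U2af2, the large U2AF subunit that binds the polypyrimidine tract, had 2.44, 3.94 and 5.19 CPM in LPN, 12.1, 8.28 and 6.14 CPM in EPN and 6.52, 11.7 and 14.3 CPM in SPN. All LPN libraries were below all EPN and SPN libraries, with a difference of -1.26 (SE 0.58, adjusted p = 0.153). Its partner U2af1, which contacts the 3′ splice site, had 127, 172 and 183 CPM in LPN, 153, 210.0 and 154 CPM in EPN and 115, 108 and 90.6 CPM in SPN. All LPN and all EPN libraries were above all SPN libraries, with a difference in LPN against SPN of 0.61 (SE 0.29, adjusted p = 0.173). For U2af1, 53.9% of the 75-base stretches also occur in other genes. Sf3b1, which clasps the branch point and is the target of known splicing inhibitors, had 367, 444 and 336 CPM in LPN, 437, 434 and 501 CPM in EPN and 332, 400.2 and 342 CPM in SPN and a difference of 0.09 (SE 0.26, adjusted p = 0.863).

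None of the 5 tri-snRNP genes passed the limma test in LPN against SPN, and none had an unadjusted p under 0.05. Of all tested genes 8.8% and 26.9% did, and with 5 genes no difference from these shares was tested. Prpf31, which binds the U4 particle, had 25.2, 37.2 and 35.7 CPM in LPN, 24.9, 23.9 and 19.1 CPM in EPN and 18.7, 26.2 and 23.3 CPM in SPN, with a difference of 0.50 (SE 0.40, adjusted p = 0.441). Prpf8 had 44.1, 30.5 and 50.4 CPM in LPN, 47.6, 33.1 and 46.2 CPM in EPN and 28.4, 50.2 and 68.0 CPM in SPN, and Prpf4, a U4/U6 protein, had 61.9, 45.5 and 137 CPM in LPN, 101, 57.6 and 94.3 CPM in EPN and 66.6, 88.2 and 80.2 CPM in SPN. All 3 overlapped between LPN and SPN. For Prpf31, every LPN library was above every EPN library. Prpf3, of the U4/U6 particle, and Prpf6, which bridges it to U5, had differences of -0.01 and 0.08.

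**Figure D3:**
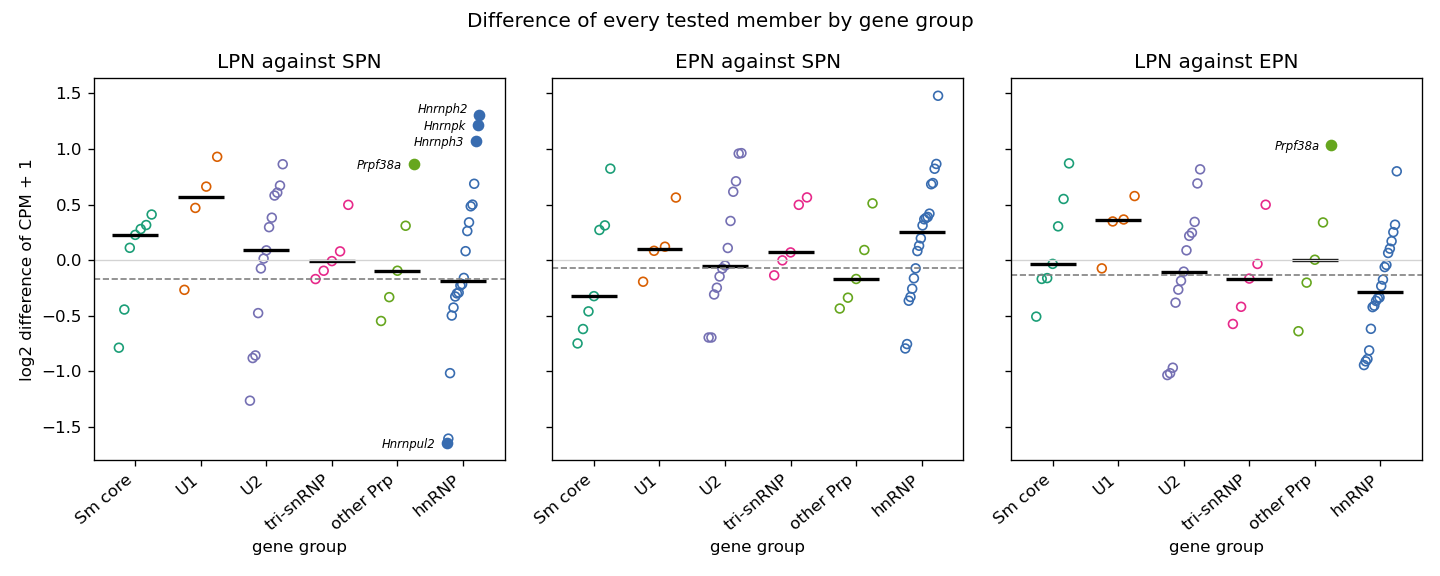
Log2 difference of CPM + 1 for each of the 54 tested genes by gene group, in LPN against SPN (left), EPN against SPN (middle) and LPN against EPN (right). Filled points passed the test, open points did not, bars are group medians and the dashed line is the median of all tested genes. Filled points stand in the hnRNP and other Prp groups only.

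The gene groups were also set side by side by their median difference in LPN against SPN, which was 0.23 for the Sm core, 0.57 for U1, 0.09 for U2, -0.01 for the tri-snRNP, -0.09 for the other Prp factors and -0.19 for the hnRNPs. The median of all tested genes was -0.17, and no median was tested against it. With 1 library left out the median of the tri-snRNP ran from -0.20 to 0.20 and that of the hnRNPs from -0.22 to -0.0011. A scaling by the median of ratios moved the median of all genes to -0.03, and with it the medians became 0.41, 0.75, 0.27, 0.17, 0.07 and -0.01 in the same order. Signs of the medians near 0 therefore depend on the scaling. It also changed the share of higher genes among all calls to 55.1%, against 37.1% without it.

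Summed over its genes, the Sm core took 1826 ± 36.4 CPM in LPN, 1666 ± 376 CPM in EPN and 2158 ± 379 CPM in SPN (SD, n = 3 each). The U1 group took 998 ± 121 CPM in LPN, 827 ± 74.2 CPM in EPN and 838 ± 173 CPM in SPN, and the U2 group took 2069 ± 347 CPM in LPN, 1943 ± 235 CPM in EPN and 1693 ± 285 CPM in SPN. The U1 sum was higher in every LPN library than in every EPN library, and the ranges otherwise overlapped. The tri-snRNP took 285 ± 74.1 CPM in LPN, 333 ± 38.9 CPM in EPN and 276 ± 32.5 CPM in SPN. The other Prp factors took 953 ± 79.0 CPM in LPN, 624 ± 72.9 CPM in EPN and 657 ± 85.8 CPM in SPN, a sum in which Prpf38a is most of the reads and LPN lay above both other groups in every library. The 20 hnRNPs took 4618 ± 723 CPM in LPN, 4715 ± 311 CPM in EPN and 3778 ± 609.9 CPM in SPN. Each sum is dominated by a few abundant genes, and no test was run on it.

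**Figure D4:**
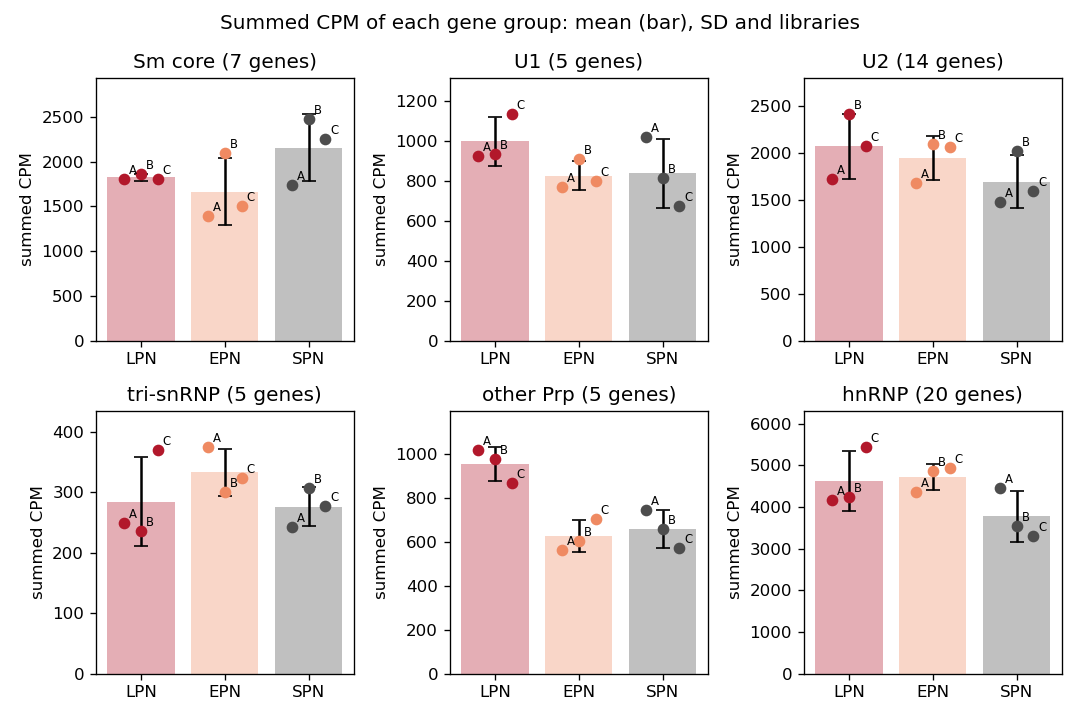
Summed CPM of each gene group in every library, one panel a gene group, in the order LPN, EPN, SPN, with bars for the means, whiskers for the SD of the 3 libraries and points for libraries A, B and C. Only the other Prp panel has all LPN points above all EPN and SPN points.

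Splicing genes outside the name rule were taken as 5 lists by role. Of 16 genes of snRNP assembly, 3 rose and 0 fell in LPN against SPN, against 3.26% higher and 5.54% lower of all tested genes, with a median difference of 0.46, beside -0.17 for all tested genes. Snupn, the import adaptor for the capped snRNP, had 708, 610.2 and 560.5 CPM in LPN, 325, 355 and 346 CPM in EPN and 331, 264 and 255 CPM in SPN and a difference of 1.14 (SE 0.26, adjusted p = 0.00846). Clns1a, which holds Sm proteins before they are loaded, had 419.8, 413 and 383 CPM in LPN, 167, 229 and 222 CPM in EPN and 260.1, 203 and 140.1 CPM in SPN and a difference of 1.05 (SE 0.28, adjusted p = 0.0212). Gemin6, of the SMN complex that loads the Sm ring, had 139, 168 and 110.0 CPM in LPN, 60.4, 53.0 and 41.9 CPM in EPN and 61.2, 57.6 and 65.8 CPM in SPN and a difference of 1.14 (SE 0.32, adjusted p = 0.0248). In all 3 genes the LPN libraries were above every EPN and SPN library. Of 7 LSm ring genes, 1 rose and 0 fell, against those same shares of all genes. That gene, Lsm8, which makes the ring specific to U6, had 191, 234 and 149 CPM in LPN, 64.9, 82.8 and 86.0 CPM in EPN and 88.4, 100.4 and 103 CPM in SPN and a difference of 0.95 (SE 0.30, adjusted p = 0.0418). Of 29 other snRNP proteins and 26 proteins of the Prp19 complex and the catalytic steps, 0 passed the limma test, with 6 and 5 at an unadjusted p under 0.05, against 26.9% of all tested genes. Of 10 other hnRNP class proteins, 1 rose and 3 fell, against the same 3.26% and 5.54% of all genes. Rbmx rose (1.34, adjusted p = 0.0171) and Ptbp3 (-1.88, adjusted p = 0.00182), Raly (-1.54, adjusted p = 0.0145) and Pcbp1 (-0.91, adjusted p = 0.0407) fell. Rbmx binds RNA as hnRNP G, Ptbp3 is a polypyrimidine tract binder, Raly is a relative of hnRNP C and Pcbp1 binds C-rich RNA as hnRNP K does.

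Embryos of early transfer were next set against sham embryos. In EPN against SPN, 0 of the 54 genes passed the limma test, and 0 did so with edgeR or DESeq2 on the recovered reads. The background was also low, with 0.0739% of all tested genes higher and 0.0336% lower by limma, 0.424% and 0.363% by DESeq2, and 0 genes by edgeR. At an unadjusted p under 0.05 there were 7 higher and 2 lower, against 5.67% and 5.37% of all genes. The groups did not overlap for 10 genes above and 2 below SPN, against 7.07% and 7.56% of all genes. The smallest p was that of Hnrnph2, with a difference of 1.48 (SE 0.40, adjusted p = 0.121). All its EPN libraries were above all SPN libraries, as given above. Sf3b2, an SF3B subunit that contacts the transcript near the branch point, had 79.8, 85.1 and 177 CPM in LPN, 194, 240.1 and 225 CPM in EPN and 85.1, 146 and 113 CPM in SPN. EPN was above both other groups in every library, and the difference in EPN against SPN was 0.96 (SE 0.32, adjusted p = 0.247). Hnrnpa1 had a difference of 0.87 (SE 0.30, adjusted p = 0.266), with SPN A above EPN A. Snrpd3, an Sm ring protein, had 162, 157 and 253 CPM in LPN, 233, 311 and 256 CPM in EPN and 135, 187 and 132 CPM in SPN and a difference of 0.82 (SE 0.29, adjusted p = 0.273), with all EPN libraries above all SPN libraries. Snrpe, with all EPN libraries below all SPN libraries, had -0.75 (SE 0.27, adjusted p = 0.295). Group medians were -0.32 for the Sm core, 0.10 for U1, -0.05 for U2, 0.07 for the tri-snRNP, -0.17 for the other Prp factors and 0.26 for the hnRNPs, beside -0.07 for all tested genes, and that of U2 was near 0 under either scaling. In simulated data of this design, changes of 4-fold were called in 43.4% of genes and changes of 2-fold in 6.91%. The changed genes there were few and drawn at random from all levels. Real differences can thus fail to pass, but how often at the levels of these 54 genes was not measured.

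The direct comparison of the transfer times has its own test. In LPN against EPN, Prpf38a rose and 0 of the 54 genes fell by limma (1.85% and 0%), against 0.692% and 0.84% of all tested genes. At an unadjusted p under 0.05 there were 5 higher and 4 lower, against 7.78% and 11.5% of all genes, and none of the 54 fell with edgeR or DESeq2. The groups did not overlap for 10 genes above and 8 below EPN, against 11.3% and 15.3% of all genes. The difference of Prpf38a was 1.04 (SE 0.27, adjusted p = 0.0434), a fold of 2.05, and edgeR did not call it. Its adjusted p ran from 0.00842 to 0.221 over 17 other settings, and it passed in 7 of them. Sf3b2 was lower in every LPN library than in every EPN library, with a difference of -1.03 (SE 0.32, adjusted p = 0.0789) that did not pass the test. Snrpd1 was higher in every LPN library than in every EPN library and had a difference of 0.87 (SE 0.30, adjusted p = 0.11). Hnrnpk, with no overlap of LPN and EPN, had 0.80 (SE 0.29, adjusted p = 0.129). Sf3a1 had -0.97 (SE 0.36, adjusted p = 0.14), with LPN C level with EPN A. Sf3a3, another SF3A subunit, had 167, 162 and 191 CPM in LPN, 109.7, 106 and 105 CPM in EPN and 122, 123 and 155 CPM in SPN, so that LPN was above and EPN below SPN in every library, with a difference in LPN against EPN of 0.69 (SE 0.28, adjusted p = 0.176). Of the lists outside the name rule, Gemin6 (1.40, adjusted p = 0.0258), Lsm8 (1.27, adjusted p = 0.0348) and Zmat5 (1.45, adjusted p = 0.0243), a protein of the minor spliceosome, rose in LPN against EPN. Both comparisons with SPN use the same 3 control libraries.

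How far the calls rest on SPN A was measured by leaving it out. In LPN against SPN, 10 of the 54 genes then rose (18.5%) and 4 fell (7.41%), against 6.59% and 11.8% of all tested genes. The 4 that rose with all libraries rose again, with differences of 1.90 for Hnrnph2, 1.55 for Hnrnpk, 1.08 for Hnrnph3 and 1.04 for Prpf38a. Prpf39 (1.24), Snrpa (1.08), Hnrnpa2b1 (0.94), Hnrnpa1 (0.89), Hnrnpc (0.84) and Snrpc (0.82) were added. Of the 4 tested U1 genes, 3 were thus higher in LPN than in SPN B and SPN C. Hnrnpul2 (-2.22) fell again, and Hnrnpa0 (-2.41), Sf3b3 (-1.50) and Snrpg (-0.97) were added to the lower genes. Hnrnpa0, of the hnRNP A/B family, had 1.93, 4.47 and 6.12 CPM in LPN, 7.52, 7.66 and 7.34 CPM in EPN and 3.80, 22.6 and 27.3 CPM in SPN, with SPN A among the LPN values. In EPN against SPN without SPN A, Hnrnph2 (2.07) and Hnrnpa1 (1.25) rose and Hnrnpul2 (-1.33) and Snrpe (-0.92) fell, against 1.84% higher and 1.2% lower of all genes. In LPN against EPN, where SPN A enters only through the shared spread, Prpf38a, Snrpd1 and Hnrnpk rose and Sf3b2 fell, against 2.08% and 3.04%. Leaving out SPN B or SPN C instead left 0 of the 54 genes past the limma test in LPN against SPN. The background was 1.06% higher and 1.95% lower of all genes without SPN B, and 0.269% and 0.376% without SPN C. In these fits 10 and 7 of the 54 had an unadjusted p under 0.05, without a matching count over all genes. With all libraries 14 of the 54 did, against 26.9% of all genes. Leaving out LPN A left 0 higher and 1 lower (against 1.12% and 2.78% of all genes), LPN B 1 higher and 0 lower (against 0.491% and 0.881%), and LPN C 2 of each (against 2.36% and 5.1%). Nothing in the labels sets SPN A apart, so its values with all 3 controls stand as the main result.

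**Figure D5:**
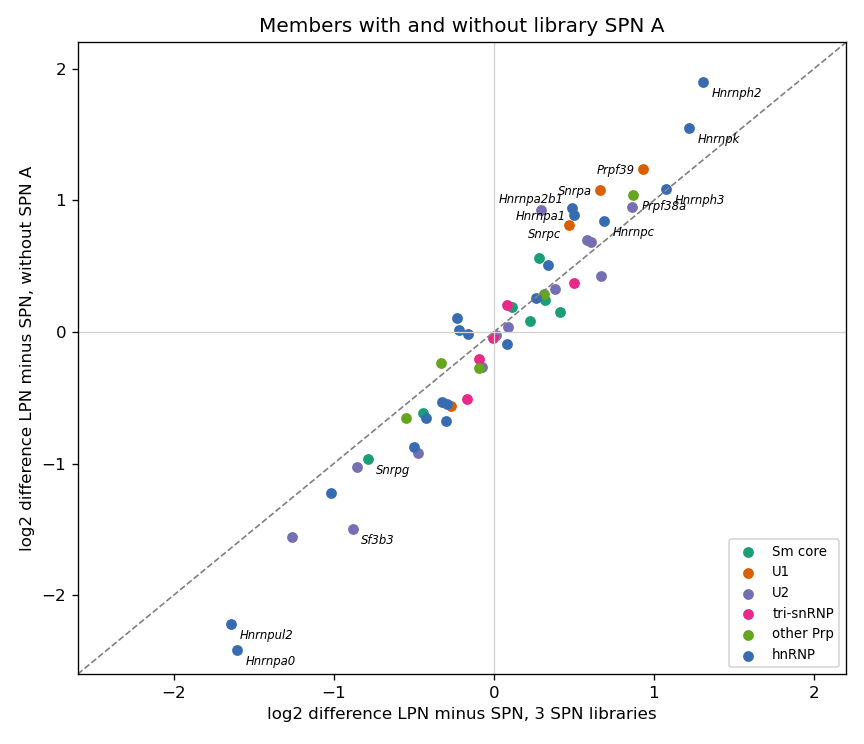
Log2 difference of each of the 54 genes in LPN against SPN with all 3 SPN libraries (horizontal axis) and without SPN A (vertical axis), coloured by gene group, with the line of equality dashed and the 14 genes that pass without SPN A named. Most named genes lie farther from 0 than the line, and Hnrnph3 lies on it.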

How the data were processed

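Poly(A) RNA of 9 libraries, 3 per group and 3 embryos each, was amplified with Smart-seq2 v4 chemistry, tagmented and sequenced in pairs, per the labels' protocols. The submitters' processing notes list Trim Galore 0.6.7, HISAT2 2.2.1, R 3.3.3, edgeR and the mouse build GRCm39; the counter, the strand setting and the annotation are not stated there. Per gene, the authors deposited CPM, read counts scaled to a common library total. Every value was a whole multiple of the worth of 1 read (100% of values, tolerance 0.01 read), so read counts were recovered; 3.66% to 5.68% of reads lay outside the table. A gene at 0 may hold up to 3 reads, 0.193 to 0.394 CPM, counting error only.

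Log2(CPM + 1) of the 14876 genes that reached 1 CPM in 3 or more libraries was fitted with limma 3.58.1 (R 4.3.3; trend, 3 group means over all 9 libraries), with two-sided tests and Benjamini-Hochberg adjustment over all tested genes. A pseudocount of 1 CPM understates the change of low genes. On simulated counts 4-fold changes were called in 44.2%, 43.4% and 43.3% of genes and 2-fold changes in 4.68%, 6.91% and 4.32%, in LPN against SPN, EPN against SPN and LPN against EPN. Each simulated set changed fewer genes than the 1309 called in LPN against SPN, so the rates may not hold for that comparison. Alternatives were a pseudocount of 0.1, no filter, a mean CPM of 5 or more, median-of-ratios scaling, edgeR 4.0.16 quasi-likelihood and DESeq2 1.42.0 on recovered reads, a replicate block, the 6 libraries of each comparison, and each library left out. Genes named with all values were those that passed in any comparison, the 3 smallest p of each gene group in LPN against SPN, and listed paralogs; the 5 smallest p in each other comparison, Sf3b1, Hnrnpc, Hnrnpa0, Sf3a3 and Hnrnpu were added after their values were seen. The genes and lists were chosen with earlier results of these data known. The values of 1 U1 gene are not reported here. Promoters are from RefSeq (GRCm38.p6), and shared 75-base stretches were counted in GENCODE M21 transcripts.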

Additional observations from a re-analysis of the deposited data

Results flagged for a closer look

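Sf3a3 was singled out because every LPN library was above and every EPN library below every SPN library, and its difference in LPN against EPN, 0.69 on the log2 scale, did not pass the limma test (adjusted p = 0.176). Over 17 other settings this adjusted p ran from 0.0137 to 0.361. Prpf38a was singled out because LPN and EPN differed in the direct test, by 1.04 on the log2 scale (limma adjusted p = 0.0434). The difference was positive in all 17 other settings, at 0.93 to 1.18. By design it was the same with no filter, the filter on mean CPM, the replicate block or only the libraries of the compared groups. So it was with an SPN library left out, and its sign in all these settings is no separate check. Groups of 3 libraries are too small for a test of single outlying libraries.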

How the results depend on the processing

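The 5 genes called in LPN against SPN kept their sign in all 17 other settings. With no filter, a mean CPM of 5 or more or the replicate block, the difference was the same by design. So it was with the 6 libraries or with an EPN library left out, and only the adjusted p could move. Of the 17 settings, Hnrnpk passed in 13, Hnrnpul2 in 13, Hnrnph3 in 10, Hnrnph2 in 7 and Prpf38a in 7. Their adjusted p ran from 4.94e-04 to 0.106 for Hnrnpk, 1.82e-04 to 0.127 for Hnrnpul2, 0.00285 to 0.177 for Hnrnph3, 9.97e-04 to 0.23 for Hnrnph2 and 0.00621 to 0.234 for Prpf38a. The causes of the changes below were not tested. In LPN against SPN the 4 higher genes became 2 with no filter, 1 with edgeR and 1 with the 6 libraries, and the 1 lower gene became 0 with no filter and 2 with a mean CPM of 5 or more, DESeq2 or the replicate block. Of all genes 1309 were called, against 494 with no filter, 471 with edgeR and 659 with the 6 libraries. In EPN against SPN the 16 calls of all genes became 4 with the pseudocount of 0.1, 0 with no filter, edgeR or the 6 libraries, 3 with median-of-ratios scaling (all of them higher, against 68.8% higher), 117 with DESeq2 and 25 with the replicate block. In LPN against EPN the 1 higher gene became 0 with the pseudocount of 0.1, no filter, median-of-ratios scaling or edgeR and 3 with DESeq2, and 0 lower became 1 with the replicate block. The 228 calls of all genes became 62 with the pseudocount of 0.1, 0 with no filter, 395 with a mean CPM of 5 or more, 21 with edgeR, 926 with DESeq2, 480 with the replicate block and 464 with the 6 libraries; with median-of-ratios scaling 70.6% of the calls were higher, against 45.2%.

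With each library left out in turn, LPN against SPN gave 0 to 10 higher and 0 to 4 lower of the 54 genes and 96 to 2733 of all genes; EPN against SPN gave 0 to 2, 0 to 2 and 0 to 451, and LPN against EPN gave 0 to 3, 0 to 1 and 4 to 762. The highest numbers came without SPN A. Median differences then ran, in LPN against SPN, from -0.024 to 0.28 for the Sm core, 0.27 to 0.95 for U1 and -0.27 to 0.26 for the other Prp factors. In EPN against SPN they ran from -0.58 to -0.17 for the Sm core, -0.10 to 0.48 for U1, -0.062 to 0.22 for U2 and -0.072 to 0.32 for the tri-snRNP. In LPN against EPN they ran from -0.21 to 0.22 for the Sm core, 0.24 to 0.48 for U1, -0.18 to 0.056 for U2 and -0.56 to 0.17 for the tri-snRNP. With median-of-ratios scaling, edgeR and DESeq2, the Sm core median in LPN against SPN was 0.41, 0.42 and 0.41, that of the other Prp factors 0.066, 0.033 and 0.019, and that of U1 in LPN against EPN 0.49, 0.47 and 0.48. The Sm core median in LPN against EPN was 0.17 with edgeR and 0.18 with DESeq2. In LPN against SPN, Prpf4 turned positive with median-of-ratios scaling (0.084), edgeR (0.21) and DESeq2 (0.19) and without LPN A (0.021) or LPN B (0.24; -0.54 without LPN C), and Prpf8 with median-of-ratios scaling (0.0088) and edgeR (0.0020) and without LPN B (0.035) or SPN C (0.11; -0.51 without SPN A); neither passed in any of these.

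The groups share the letters A to C. Deviations of same-letter libraries correlated across genes at -0.02 to 0.09, and those of libraries with different letters at -0.0996 to 0.0960. Not every library correlated best with its own letter. Correlations this weak cannot decide whether same-letter libraries were handled together. The replicate block added Snrpg to the lower genes of LPN against SPN (adjusted p = 0.0402) and Sf3b2 to those of LPN against EPN (adjusted p = 0.0481) in limma. Depth limits the low genes: in LPN B, the shallowest library, 1 read was worth 0.131 CPM and U2af2 had 3.94 CPM.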
